A study of Mus musculus with 31 samples.

Results

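The 37 genes carried by the mouse mitochondrial genome were described in single olivocochlear neurons. They were taken by name, as every gene whose symbol begins with mt-, from a table of raw read counts that held 55421 mouse genes, and those missing from the authors' normalized table were found by their Ensembl identifiers. The 37 genes comprise 13 protein-coding (mRNA) genes, 2 ribosomal RNA (rRNA) genes and 22 transfer RNA (tRNA) genes, and these 3 classes were kept apart. A gene is called measured here if 25% or more of the cells in either group had a read of it, which held for 11 mRNA genes, both rRNA genes and 14 tRNA genes, which makes 27 of the 37. The remaining 10 genes, 2 mRNA genes and 8 tRNA genes, are given below with their counts.

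Each library came from 1 neuron that had been recorded by patch clamp in an acute brainstem slice, after which its cytoplasm was drawn into the pipette. The 18 lateral olivocochlear (LOC) cells lay in the lateral superior olive and the 13 medial olivocochlear (MOC) cells in the ventral nucleus of the trapezoid body. Both cell types are cholinergic neurons whose axons run to the cochlea, and both groups came from ChAT-IRES-Cre; tdTomato mice, in which Cre recombinase made from the choline acetyltransferase locus switches on a red protein, while the label for genotype reads wild-type. Both groups carry the same alleles and had the same treatment, and the age of the mice was not given in the sources used here. Complementary DNA was made by Smart-seq2, which primes on poly(A) tails and amplifies whole transcripts by PCR, and Nextera libraries, which keep no strand, were read in pairs of 75 bases. Because no animal is named for any cell, a group is treated as a single sample. Comparisons are therefore descriptions without a test, and mean ± SD gives the spread between cells.

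The libraries held 27894270 counts in all, between 356412 and 2627174 per cell, and no 2 libraries were identical. The cholinergic defining genes Chat, Slc18a3 and Slc5a7 together had 10 or more reads in 14 of 18 LOC and 8 of 13 MOC libraries, so 4 LOC and 5 MOC libraries held few or no such reads. LOC cell 14, LOC cell 16 and MOC cell 8 had 0. Markers of oligodendrocytes were read throughout, and in 5 LOC and 3 MOC libraries they made up more than 10% of the counts outside the mitochondrial genome. The differences in share and the ratios are also given for the 14 LOC and 8 MOC libraries with 10 or more cholinergic reads, and for the 13 LOC and 10 MOC libraries with at most 10% oligodendrocyte markers.

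The mitochondrial genome is a small circle transcribed from both strands into long precursors. In the usual account tRNAs lie between most of the mRNAs and rRNAs, and their excision releases the other RNAs, most of which then receive short poly(A) tails. The 13 proteins are all core subunits of the respiratory chain or of ATP synthase, which neurons rely on for most of their ATP, and the rRNAs and tRNAs serve only the ribosomes inside the organelle. Every other subunit of these complexes is encoded in the nucleus. Stretches of mitochondrial DNA have also been copied into the nuclear genome, where they are annotated as pseudogenes.

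The sequences below show where the mitochondrial genes and their annotated nuclear copies can and cannot be told apart by a read. In the first pair, from GRCm38, the start of mt-Nd3 (chrM:9459-9533, plus strand) stands beside the start of its copy Gm28438 (chr1:24613045-24613119, minus strand). The capital marks the only base that differed over the 345 aligned bases, T3C, counted from 1 at the 5′ end of mt-Nd3.
mt-Nd3: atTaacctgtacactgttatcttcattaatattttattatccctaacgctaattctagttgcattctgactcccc
Gm28438: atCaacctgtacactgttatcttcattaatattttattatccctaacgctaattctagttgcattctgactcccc
In the second pair the beginning of the copied part of mt-Co1 (chrM:6390-6464, plus strand) stands beside Gm29216 (chr1:24616114-24616188, minus strand). The capital marks the only difference in 483 aligned bases, A1066T, counted from 1 at the 5′ end of mt-Co1.
mt-Co1: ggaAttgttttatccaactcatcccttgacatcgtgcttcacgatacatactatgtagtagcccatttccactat
Gm29216: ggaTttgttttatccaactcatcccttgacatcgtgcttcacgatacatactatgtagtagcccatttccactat

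Adjacent mitochondrial genes can also share bases, which leaves a read there with no single gene. In the stretch of chrM:7911-7985 (plus strand) the capitals mark the 43 bases that belong to both mt-Atp8 and mt-Atp6, the genes of ATP synthase subunits.
mt-Atp8 and mt-Atp6: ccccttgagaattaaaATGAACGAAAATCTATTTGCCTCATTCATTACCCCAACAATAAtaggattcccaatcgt
The last 45 bases of mt-Cytb (chrM:15244-15288, plus strand) are shown because this gene, like mt-Co3 and mt-Nd4, ends in an incomplete codon, marked by the capital, which the poly(A) tail completes to a stop codon.
mt-Cytb 3′ end: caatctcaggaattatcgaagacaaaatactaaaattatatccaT
The tRNAs for glutamate (mt-Te, chrM:14071-14139, minus strand) and cysteine (mt-Tc, chrM:5192-5257, minus strand) are shown whole because they alone met the size rule given further on. The capitals mark the anticodons.
mt-Te: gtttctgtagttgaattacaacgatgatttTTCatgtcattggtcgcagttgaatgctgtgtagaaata
mt-Tc: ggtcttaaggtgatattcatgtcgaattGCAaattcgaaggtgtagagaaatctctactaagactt

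Mitochondrial RNA was abundant in most of these neurons. The 37 genes took 4693257 counts, of which the 2 rRNA genes held 52.0%, the 13 mRNA genes 47.5% and the 22 tRNA genes 0.579%. They made up 18.6% of the summed LOC counts and 14.998% of the summed MOC counts. The exact 95% binomial (Clopper-Pearson) intervals were 18.55 to 18.59% and 14.98 to 15.02%, and since these reads carry no molecular identifiers, such intervals cover counting error only and are far narrower than the spread between cells. Per cell the share ran from 2.36% (LOC cell 14) over a median of 21.4% to 43.7% (LOC cell 16) in LOC, and from 1.56% (MOC cell 13) over 11.5% to 32.5% (MOC cell 11) in MOC. The ranges of the groups overlapped over most of their length. A total below 3% was found in 2 LOC cells (14 and 15) and 3 MOC cells (2, 5 and 13), and the other 26 cells had 6.93% or more.

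The mRNA genes took between 1.18% (LOC cell 15) and 23.3% (LOC cell 16) of a LOC library, with a median of 9.03%. In MOC they took between 0.572% (MOC cell 5) and 15.2% (MOC cell 11), with a median of 6.20%. The means were 9.13 ± 5.67% (SD, n = 18 cells) and 6.43 ± 4.43% (n = 13), and the difference was smaller than the SD of either group. The rRNA genes showed the same order, at 10.1 ± 5.43% in LOC (1.16 to 20.2%, median 11.1%) against 7.27 ± 5.36% in MOC (0.742 to 17.2%, median 5.34%). Of the LOC cells 14 of 18 lay above the MOC median, and 3 of 13 MOC cells lay above that of LOC. The tRNA genes held 0.123 ± 0.0955% in LOC and 0.0605 ± 0.0642% in MOC, and again the groups overlapped. In the libraries with 10 or more cholinergic reads the differences of the means shrank, to 1.08 percentage points for mRNA (2.70 in all libraries), 1.67 for rRNA (2.86) and 0.0378 for tRNA (0.0626). With at most 10% oligodendrocyte markers they were 2.69, 3.81 and 0.0567. Between the mRNA share and total counts, which share a library, Spearman's rho was -0.01 over 31 cells (r -0.01, r -0.07 without the 2 farthest cells), but -0.36 within LOC (r -0.22, -0.54 without them) and 0.58 within MOC (r 0.36, 0.46 without them). MOC libraries were deeper on average, and the part of depth in the shares was not tested.

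**Figure D1:**
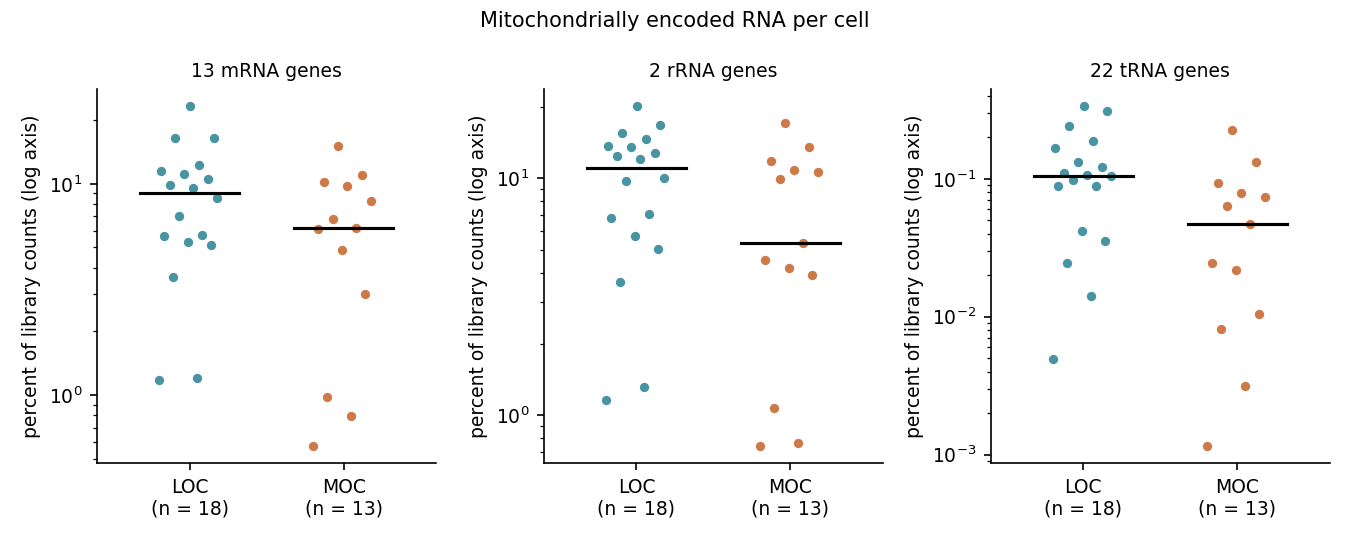
Percent of each library's counts (log axis) in the 13 mRNA, 2 rRNA and 22 tRNA genes. Each point is 1 cell (18 LOC, 13 MOC) and the black line is the group median. All 3 classes span more than a factor of 10 within each group, the groups overlap, and the same few cells (2 LOC and 3 MOC) form the low end for mRNA and rRNA.

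Within the mRNA class, 7 genes held 99.9% of the counts. They are 5 subunits of complex I, the NADH dehydrogenase that passes electrons from NADH to ubiquinone (mt-Nd1, mt-Nd2, mt-Nd4, mt-Nd5 and mt-Nd6), cytochrome b of complex III (mt-Cytb) and the catalytic subunit of cytochrome c oxidase, complex IV (mt-Co1). All 7 were read in every cell. The other 6 genes, which encode 2 further complex I subunits, the other two core subunits of complex IV and both subunits of ATP synthase (complex V), held 1948 counts or 0.0875%.

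The 6 scarce genes were those covered by nuclear copies, or lay between them. On chromosome 1 (chr1:24611535-24616197, GRCm38, minus strand) 7 annotated pseudogenes stood in 4663 bases in the order of the mitochondrial map, and they matched mitochondrial positions 6390 to 11042. Copies of mt-Co2 (Gm28661), mt-Atp6 (Gm10925), mt-Co3 (Gm28437) and mt-Nd4l (Gm10222), and of the first 876 bases of mt-Nd4 (Gm28439), were identical to the mitochondrial gene over their aligned length. A 75-base window, the length of a read, had an exact copy in a nuclear transcript at 99.5% of positions in mt-Co2, 99.5% in mt-Atp6, 99.9% in mt-Co3, 97.8% in mt-Nd3 and 98.7% in mt-Nd4l. The share was 61.5% in mt-Nd4, 39.8% in mt-Co1, 5.7% in mt-Nd2 and 1.7% in mt-Nd5, and it was 0 in mt-Nd1, mt-Nd6, mt-Cytb and both rRNA genes. This measure takes single reads and does not ask where the mate of a pair falls. mt-Atp8 had no copy by it. The search kept only matches of 90% identity or more, and the longest for mt-Atp8 was its last 43 bases, in Gm10925. A more diverged copy would not have been found. The rest of mt-Atp8 lies in a gap of 233 bases between Gm28661 and Gm10925 that has the same length in both genomes.

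The counts were low over the same stretch. mt-Co2 had 87 counts in all cells together, mt-Atp6 82, mt-Co3 152, mt-Atp8 6 and mt-Nd4l 7, against 33832 for mt-Nd6, the lowest of the 7 abundant genes. mt-Nd3, whose copy differs at the base shown above, stood between with 1614 counts. The 7 pseudogenes of the block held 2922 counts, more than the 6 scarce genes together, and Gm28437 led with 1296, followed by Gm29216 with 540, Gm10925 with 406 and Gm28661 with 391. The counts of all copies with at least 95% identity over at least 100 bases were also summed, which takes in copies on chromosomes 2 and 13. Across the 31 cells this sum per 1000000 counts outside the mitochondrial genome tracked that of the mRNA genes (rho 0.92, r 0.92, r 0.88 without the 2 farthest cells, with a shared library and denominator). How the counting treated reads that fit more than 1 place was not given in the sources used here. The part of this handling in the low counts was not tested. For mt-Atp8 none of the 130 windows had an exact copy in an annotated transcript, although its count was low too.

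**Figure D2:**
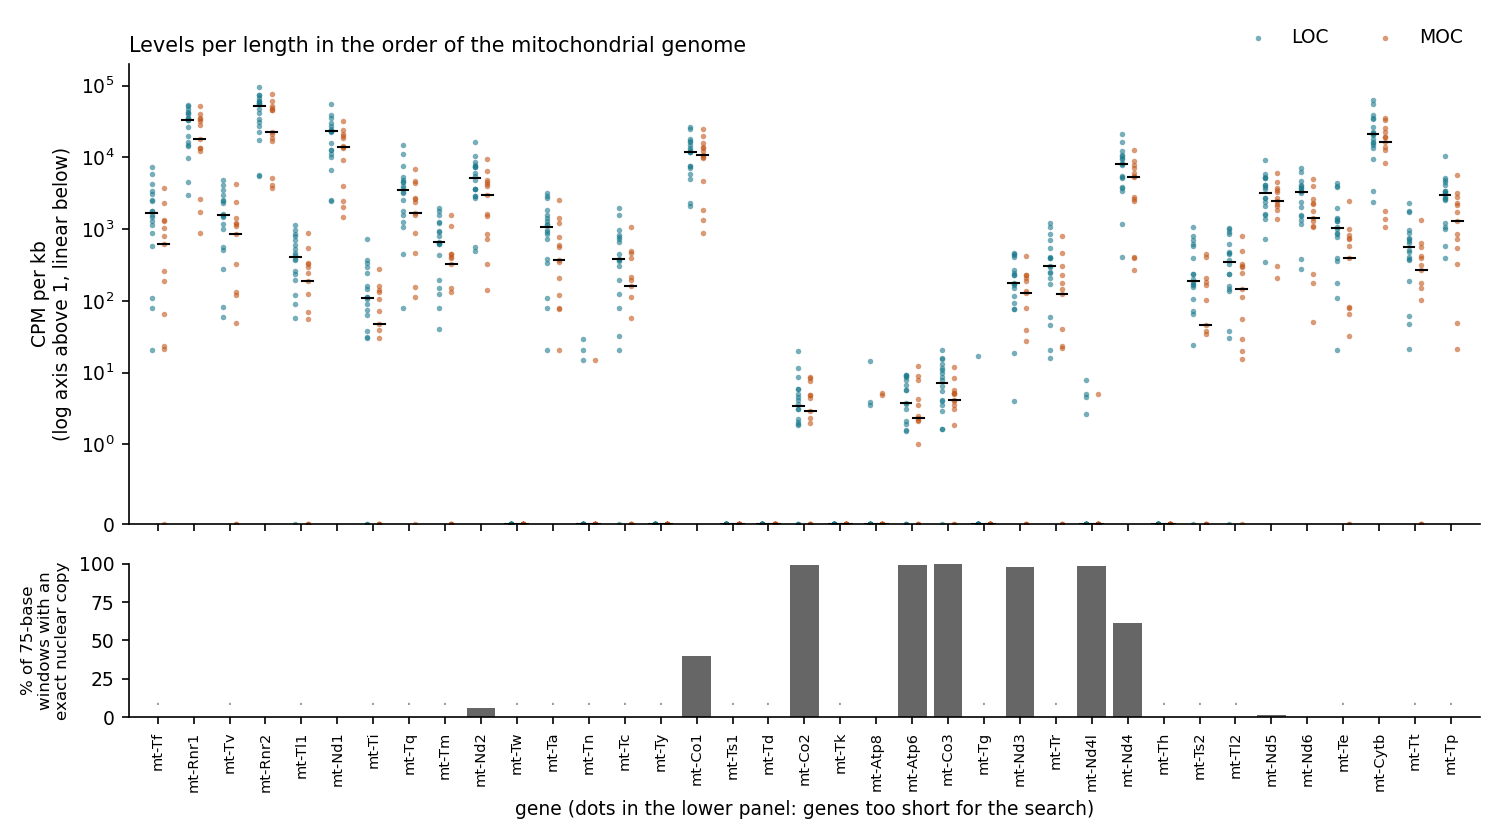
Upper panel, counts per 1000000 (CPM) per kb of gene length (log axis above 1, linear below) of all 37 genes in the order of the mitochondrial genome, 1 point per cell and a black line at each group's median. Lower panel, percent of 75-base windows of each gene with an exact copy in a nuclear transcript, where a small dot stands for a gene shorter than the window or without a value. mt-Co2, mt-Atp6, mt-Co3 and mt-Nd4l lie between 0 and about 20 CPM per kb above bars of 98.7 to 99.9% in the lower panel. mt-Co1 and mt-Nd4, with bars of 39.8 and 61.5%, lie higher.

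Levels were compared between genes as CPM per kb of gene length (mean over 31 cells). The large ribosomal RNA, mt-Rnr2, was highest at 40653 ± 25104 CPM per kb (SD), and the small one, mt-Rnr1, followed at 26183 ± 16354. Among the mRNA genes mt-Cytb had 20900 ± 14791, mt-Nd1 17947 ± 12390 and mt-Co1 11548 ± 6958. mt-Nd4 had 6670 ± 4882, mt-Nd2 4660 ± 3601, mt-Nd5 3116 ± 1991 and mt-Nd6, the only mRNA gene on the other strand, 2512 ± 1799. Within a cell mt-Rnr2 exceeded mt-Rnr1 in 31 of 31 cells and mt-Co1 exceeded mt-Nd4 in 31 of 31, whereas mt-Cytb exceeded mt-Nd1 in 21 of 31 and mt-Rnr1 exceeded mt-Cytb in 23 of 31. The mean log2 ratio of mt-Cytb to mt-Nd1 was 0.18 ± 0.39 and that of mt-Rnr1 to mt-Cytb 0.32 ± 0.50, so neither pair differed beyond its spread.

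When length was taken as the number of 75-base windows without an exact nuclear copy, a measure chosen after seeing the data, 4 mRNA genes came close together. mt-Cytb then had 22345 CPM per kb, mt-Co1 20161, mt-Nd1 19451 and mt-Nd4 18309. The other three abundant mRNA genes stayed well below, with mt-Nd2 at 5321, mt-Nd5 at 3302 and mt-Nd6 at 2930. Both measures divide the same counts, so the 2.75-fold rise of mt-Nd4 follows from length alone (1378 bases, 502 windows without a copy). mt-Nd2 and mt-Nd5 have few copied windows (5.7 and 1.7%), so their values could hardly move. The measure is apt only if reads in copied stretches went uncounted, which was not tested.

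Each of the 7 abundant mRNA genes was then compared between the groups on the scale of CPM in a cell. Of the complex I genes, mt-Nd1 ran from 2335 over a median of 22131 to 52408 CPM in LOC and from 1425 over 13545 to 31067 CPM in MOC. mt-Nd2 ran from 511 over 5411 to 17096 CPM in LOC and from 149 over 3159 to 9877 CPM in MOC. mt-Nd4 ran from 563 over 11062 to 29176 CPM in LOC and from 376 over 7358 to 17391 CPM in MOC. In all 3 genes the groups overlapped and MOC cell 11 was the highest of its group.

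mt-Nd5 ran from 635 over 5861 to 17002 CPM in LOC and from 383 over 4538 to 10908 CPM in MOC. mt-Nd6 ran from 143 over 1707 to 3660 CPM in LOC and from 26.8 over 739 to 2607 CPM in MOC. Again the ranges overlapped, with MOC cell 5 lowest for both genes. mt-Cytb, the complex III subunit, ran from 2701 over 23901 to 73448 CPM in LOC and from 1222 over 18563 to 41211 CPM in MOC. mt-Co1, the complex IV subunit, ran from 3233 over 18432 to 40921 CPM in LOC and from 1375 over 16927 to 38416 CPM in MOC. The groups overlapped for both genes. For mt-Co1 the summed CPM was lower in LOC (17822, exact 95% Poisson interval 17753 to 17892) than in MOC (19466, 19392 to 19541). MOC cell 7, the deepest library, held 30.4% of the MOC counts of this gene. Its mean CPM over cells had the other order, at 18631 in LOC and 16749 in MOC.

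Mean log2(CPM + 1) was higher in LOC for each of the 7 genes. The difference, LOC minus MOC, was 1.15 for mt-Nd2, 1.11 for mt-Nd6, 1.05 for mt-Nd4, 0.83 for mt-Cytb, 0.78 for mt-Nd1, 0.47 for mt-Nd5 and 0.41 for mt-Co1. The SDs over cells of these log2 values were larger, between 1.03 (mt-Co1 in LOC) and 1.90 (mt-Nd6 in MOC). mt-Co1 thus had a mean difference above 0 and a ratio of summed CPM of 0.916, below 1. Of the scarce genes, mt-Nd3 differed by 1.44, mt-Co3 by 0.63, mt-Atp6 by 0.29 and mt-Co2 by 0.28. mt-Nd4l and mt-Atp8 were not measured by the criterion used here and were read in 5 cells each.

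The ribosomal RNA genes gave like values. mt-Rnr1 ran from 2871 over a median of 31875 to 51278 CPM in LOC and from 853 over 17093 to 50588 CPM in MOC. mt-Rnr2 ran from 8725 over 81477 to 150872 CPM in LOC and from 5958 over 36318 to 120993 CPM in MOC. The groups overlapped for both genes, and the differences of mean log2(CPM + 1) were 0.80 and 0.74. The ratio of rRNA to mRNA counts was 1.19 ± 0.545 in LOC and 1.14 ± 0.351 in MOC, with LOC cell 1 apart at 3.27. The ratio of mt-Rnr2 to mt-Rnr1 counts was 2.69 ± 0.403 in LOC and 2.97 ± 1.48 in MOC, where MOC cell 2 stood apart at 7.69.

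Counts of the tRNA genes were low and uneven. Each tRNA gene is between 59 and 75 bases long, so that a read is as long as the gene or longer and can reach into its neighbours, and without strand a read from the opposite strand cannot be told apart. The 6 with the most counts held 78.9% of the class. They were mt-Tq (glutamine, 6926 counts), mt-Tp (proline, 4664), mt-Tf (phenylalanine, 3096), mt-Tv (valine, 2878), mt-Te (glutamate, 1990) and mt-Ta (alanine, 1908). No count was found for mt-Tw, mt-Ty, mt-Ts1, mt-Td, mt-Tk and mt-Th, the genes for tryptophan, tyrosine, 1 of the serine tRNAs, aspartate, lysine and histidine, while mt-Tg (glycine) had 1 count and mt-Tn (asparagine) 5. For a gene at 0 the limit that a count of 0 allows is 3 counts, or between 1.14 and 8.42 CPM in a single cell.

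Of the 22 tRNA genes, 10 lie between mitochondrial stretches with annotated nuclear copies on chromosome 1 or 2 (the second block is chr2:22587291-22590533, which matches mitochondrial positions 4442 to 7696). Of these 10, 7 were not measured, and 3 were (mt-Ta, mt-Tc and mt-Tr). Of the 12 elsewhere, 11 were measured and mt-Th was not. The part of the copies in this pattern was not tested, because the gaps between the pseudogenes are not annotated as transcripts and no genome sequence was used here.

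The size rule asked 3 things of a gene: a ratio of summed CPM of 2 or more between the groups, a mean log2(CPM + 1) higher by 1 or more, and reads in no fewer than 25% of the cells of the higher group. Toward LOC 2 of the 27 measured mitochondrial genes met it, both tRNA genes, beside 6.07% of all 17754 measured genes. Toward MOC 0 met it, beside 5.67% of all measured genes. None of the mRNA or rRNA genes met the rule in either direction. A count of 2 in 27 is near the background and is no result about the class, and it depended on single libraries: leaving out MOC cell 7 gave 12, leaving out MOC cell 11 gave 8, and leaving out MOC cell 2, 3, 4, 5, 8 or 13, or LOC cell 1 or 2, gave 1.

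mt-Te ran from 1.42 over a median of 71.9 to 303 CPM in LOC and from 0 over 27.2 to 172 CPM in MOC. Its summed CPM was 99.8 (exact 95% Poisson interval 94.7 to 105) in LOC and 41.6 (38.2 to 45.1) in MOC, and the mean log2 difference was 1.96. mt-Tc ran from 0 over 25.1 to 132 CPM in LOC and from 0 over 10.7 to 70.1 CPM in MOC. For mt-Tc the summed CPM was 38.2 (35.0 to 41.5) and 18.6 (16.34 to 20.99), with a difference of 1.46. Both tRNAs overlapped between the groups, their highest LOC value was in LOC cell 1, and a read was found in 18 LOC and 11 MOC cells for mt-Te and in 17 and 9 for mt-Tc.

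All 27 measured mitochondrial genes had a mean log2 difference above 0, from 0.28 (mt-Co2) to 1.96 (mt-Te). The median was 0.78 over the 11 mRNA genes, 0.77 over the 2 rRNA genes and 1.48 over the 14 tRNA genes, beside -0.07 over all measured genes, of which 45.7% lay above 0. TMM sizes moved the median of all measured genes to -0.13, and the direction was the same there for all 27 genes. In the libraries with at least 10 cholinergic reads (14 LOC, 8 MOC) mt-Co2 differed by -0.38 and the other 26 genes remained above 0. The genes are not independent of each other. Over the 11 mitochondrial genes read in every cell, the 55 pairs had rho between 0.54 and 0.98 across the 31 cells (median 0.85), on values that share a library and its total, so 27 differences in 1 direction amount to far fewer than 27 observations.

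**Figure D3:**
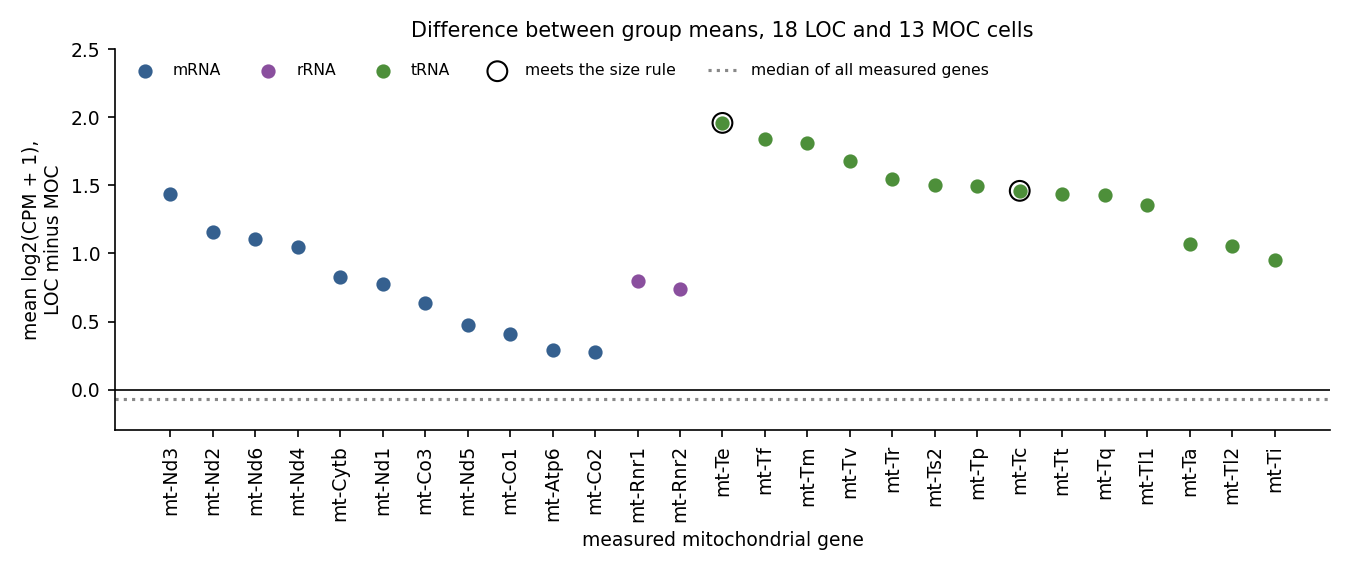
Mean log2(CPM + 1) of 18 LOC cells minus that of 13 MOC cells for the 27 measured mitochondrial genes, by class, with circles around the 2 genes that met the size rule and a dotted line at the median of all measured genes (-0.07). All points lie above 0, mRNA genes between 0.28 and 1.44 and tRNA genes between 0.95 and 1.96.

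The make-up of the mRNA, taken as each gene's percent of the 7 abundant genes in a cell, varied less than the amount, with coefficients of variation over cells of 12.4 to 47.7% for the shares and 60.3 to 77.3% for CPM. mt-Co1 made up between 16.9% (LOC cell 2) and 30.1% (LOC cell 15) of this mRNA in LOC, with a median of 21.1%, and between 21.6% (MOC cell 12) and 32.7% (MOC cell 8) in MOC, with a median of 25.4%. The means were 21.5 ± 3.38% and 26.4 ± 3.36%, and their difference, -4.95 percentage points, was larger than the SD of either group. All 13 MOC cells lay above the LOC median and 3 of 18 LOC cells lay above the MOC median, although the ranges overlapped. In the libraries with at least 10 cholinergic reads the means were 21.3 ± 3.33% (n = 14) and 26.6 ± 3.12% (n = 8), and without the libraries above 10% oligodendrocyte markers they were 21.5 ± 3.47% (n = 13) and 26.3 ± 3.62% (n = 10). This comparison, like those of ratios that follow, was chosen after the values were seen.

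mt-Nd4 was higher in LOC, at 11.8 ± 2.58% of this mRNA in LOC and 9.46 ± 2.70% in MOC, as was mt-Nd2, at 6.38 ± 1.51% and 5.03 ± 2.18%. mt-Cytb took 29.9 ± 4.32% and 27.9 ± 5.35%, and mt-Nd1 21.6 ± 2.12% and 20.8 ± 3.24%. None of these 4 genes differed by more than the SD of either group. mt-Nd5 took 7.05 ± 1.56% and 8.98 ± 5.42%, where MOC cell 2 stood apart at 25.8%. Since the shares within a cell sum to a fixed total, they are not independent of each other.

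mt-Nd6 is the single mRNA gene transcribed from the opposite strand, and it overlaps the end of mt-Nd5 by 14 bases. There were 25.4 ± 7.24 mt-Nd6 counts per 100 mt-Nd5 counts in LOC cells (10.9 in LOC cell 14, median 26.7, 38.7 in LOC cell 7) and 17.1 ± 6.79 in MOC cells (4.83 in MOC cell 2, median 17.6, 27.6 in MOC cell 10). Of the LOC cells 16 of 18 lay above the MOC median, and 1 of 13 MOC cells lay above the LOC median. The difference of the means was 8.26 in all libraries, 9.71 in those with at least 10 cholinergic reads and 8.85 without those above 10% oligodendrocyte markers. Because the libraries keep no strand, reads of the opposite strand across either gene are counted with it.

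tRNA counts per 100 mRNA counts were 1.51 ± 1.16 in LOC (0.199 in LOC cell 4, median 1.15, 4.75 in LOC cell 1) and 0.786 ± 0.453 in MOC (0.145 in MOC cell 13, median 0.768, 1.49 in MOC cell 11). The difference was smaller than the SD in LOC, and 4 of 13 MOC cells lay above the LOC median. In the libraries with 10 or more cholinergic reads the means were 1.59 ± 1.22 (n = 14) and 0.962 ± 0.462 (n = 8), and in those with at most 10% oligodendrocyte markers 1.52 ± 1.35 (n = 13) and 0.673 ± 0.415 (n = 10). Over the 31 cells this ratio followed the mt-Nd6 to mt-Nd5 ratio (r 0.53, rho 0.62, r 0.48 without the 2 farthest cells), a description over cells that share libraries. Both ratios had the higher mean in LOC. Within LOC r was 0.49 and rho 0.65, and within MOC r was 0.32 and rho 0.39.

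The amount of mitochondrial mRNA was also set against 77 nuclear genes for subunits of complexes I, III, IV and V, with the inhibitor of complex V counted among them. There were 5.22 ± 2.88 mitochondrial mRNA counts per count of these nuclear genes in LOC (0.721 in LOC cell 15, median 4.81, 11.3 in LOC cell 16) and 2.61 ± 2.12 in MOC (0.424 in MOC cell 2, median 2.07, 7.58 in MOC cell 11). The groups overlapped, with 15 of 18 LOC cells above the MOC median and 2 of 13 MOC cells above the LOC median. The means were 5.04 ± 2.32 (n = 14) and 2.77 ± 2.31 (n = 8) in the libraries with 10 or more cholinergic reads, and 4.73 ± 3.18 (n = 13) and 2.03 ± 1.67 (n = 10) in those with at most 10% oligodendrocyte markers. The nuclear part of the ratio had its higher mean in MOC. The nuclear genes stood at 22755 ± 8342 counts per 1000000 outside the mitochondrial genome in LOC and 29416 ± 8549 in MOC, a difference smaller than the SD of either group. Of the measured nuclear subunit genes, 0 met the size rule toward LOC, and 4 of complex I, 1 of complex III, 1 of complex IV and 0 of complex V met it toward MOC. These 6 of 76 measured genes stand beside 5.67% of all measured genes toward MOC, and the 0 of 76 beside 6.07% toward LOC.

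**Figure D4:**
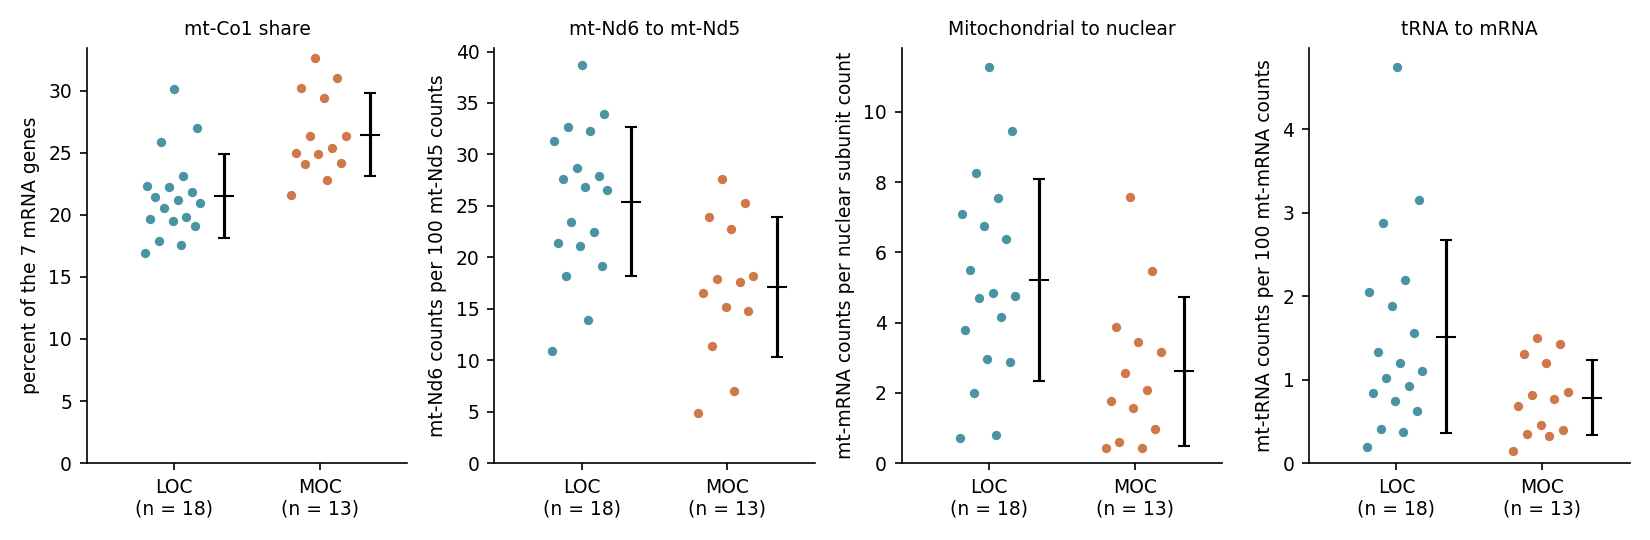
From left to right, mt-Co1 as percent of the 7 abundant mRNA genes, mt-Nd6 counts per 100 mt-Nd5 counts, mitochondrial mRNA counts per count of 77 nuclear subunit genes, and tRNA counts per 100 mRNA counts. Each point is 1 cell (18 LOC, 13 MOC) and the bar is the mean with its SD over cells. All axes start at 0, and the groups overlap in every panel. For mt-Co1 13 of 13 MOC cells lie above the LOC median of 21.1%, and for mt-Nd6 16 of 18 LOC cells lie above the MOC median of 17.6.

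Markers of glia moved with the amount of mitochondrial mRNA. Per 1000000 counts outside the mitochondrial genome, the 10 astrocyte markers summed to between 1263 (LOC cell 14) and 12958 (LOC cell 16) in LOC and between 619 (MOC cell 5) and 10205 (MOC cell 7) in MOC, and none of the 10 was at 0 in either group. Over 31 cells this sum and the mRNA genes had r 0.85 and rho 0.83 (r 0.81 without the 2 farthest cells), with rho 0.79 within LOC and 0.91 within MOC. The points share a library and a denominator. The 10 oligodendrocyte markers, none at 0 in either group, summed to between 23.3 (LOC cell 14) and 311152 (LOC cell 17) in LOC and between 368 (MOC cell 13) and 151551 (MOC cell 6) in MOC, with r 0.51 and rho 0.71 against the mRNA genes. For the 12 microglial markers rho was 0.30, and for the 3 cholinergic genes it was -0.18 (-0.47 within LOC and 0.02 within MOC). The summed nuclear subunit genes also had rho 0.42 against the mRNA genes (0.645 within LOC and 0.42 within MOC). Without the 2 farthest cells their rho was 0.35 over all cells, 0.62 within LOC and 0.045 within MOC. For the astrocyte sum it was then 0.80, 0.70 and 0.89. The 5 cells with under 3% mitochondrial counts were those with the 5 lowest astrocyte sums (619 to 1940, against 2114 or more in the other 26 cells), and the part of RNA from other cells in the mitochondrial counts was not tested. The mean sums were 5431 ± 3860 in LOC and 4806 ± 3137 in MOC for astrocyte markers, 79614 ± 87033 and 63893 ± 57006 for oligodendrocyte markers, and 822 ± 1083 and 2107 ± 3295 for microglial markers, of which 7 of 12 met the size rule toward MOC.

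**Figure D5:**
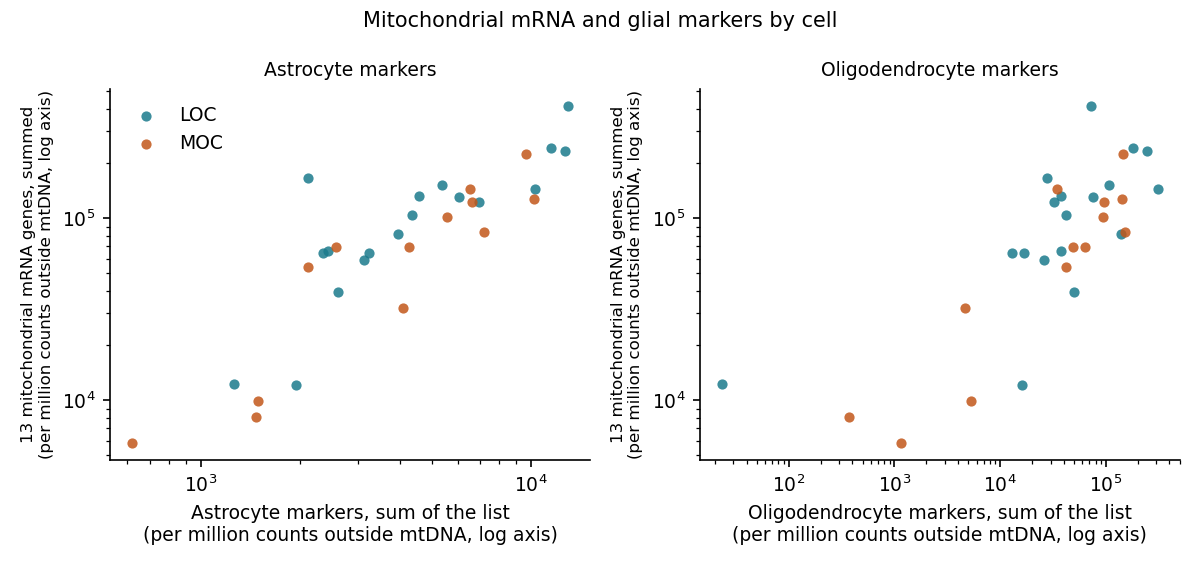
Sum of the 13 mitochondrial mRNA genes against the sum of 10 astrocyte markers (left) and 10 oligodendrocyte markers (right), all per 1000000 counts outside the mitochondrial genome on log axes, 1 point per cell. The mRNA sum rises with the astrocyte sum over the whole range in both groups (rho 0.83), and the right panel is looser (rho 0.71), with LOC cell 14 alone at 23.3 on its horizontal axis.

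Genes of the nuclear machinery that makes, processes and translates mitochondrial RNA were read from 4 lists, whose counts stand beside the 6.07% of all measured genes that met the size rule toward LOC and the 5.67% toward MOC. Of 19 measured genes for transcription and replication of mitochondrial DNA, 1 met the size rule toward LOC and 2 toward MOC, with a median difference of 0.04. They were Mterf3, a member of the mitochondrial transcription termination factor family (difference 1.71, summed CPM 36.6 in LOC and 5.87 in MOC), the nuclease gene Exog (-1.75) and Top1mt, the mitochondrial topoisomerase gene (-1.54). Of 35 measured genes for RNA processing and stability, 5 met it toward LOC and 7 toward MOC, with a median of -0.38. The largest differences were those of Trmu, which modifies mitochondrial tRNAs (2.38), Fastkd2, an RNA-binding protein of mitochondrial RNA granules (-2.21), Pnpt1, a subunit of the mitochondrial RNA degradosome (2.01), and Trnt1, which adds the CCA end to tRNAs (-1.89). Their sums were often set by 1 cell, since MOC cell 3 held 90.3% of the MOC counts of Pnpt1 and MOC cell 4 held 84.1% of those of Trmu.

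The 23 measured genes for charging mitochondrial tRNAs had a median difference of 0.01, and 0 met the size rule toward LOC and 2 toward MOC. These 2, Gatc (-1.12) and Qrsl1 (-1.63), encode subunits of the amidotransferase that completes glutaminyl-tRNA, while Gatb, its other subunit, differed by 0.61 and did not meet the rule. MOC cell 8 held 61.4% of the MOC counts of Qrsl1. Of 14 measured translation factor genes, 1 met the rule toward LOC, Gfm2 (1.46), which acts in recycling of the mitochondrial ribosome, and 0 toward MOC, with a median of 0.10. In each of the 4 lists some genes lay above 0 and some below, whereas the 27 measured mitochondrially encoded genes all lay above 0. A single direction was not particular to them. Of the measured nuclear subunit genes, 0 of 13 of complex IV and 0 of 17 of complex V lay above 0, beside 16 of 37 of complex I and 3 of 9 of complex III.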

How the data were processed

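Raw read counts by gene and cell were deposited by the authors. They also deposited normalized signal values of 20774 mouse genes, named by them as CPM with TMM scaling, used here only as an alternative scaling. The submitters' processing notes name bcl2fastq, STAR 2.5.2, limma, edgeR and DESeq2, and as builds mm10 and GRCm38, with no roles given. The counting tool, the annotation and the handling of reads that fit several places were not given in the sources used here. Groups came from the labels, 1 column per cell, and 0 columns were unmapped. The 19 rows of added sequences (0.0173% of counts) were left out.

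CPM used the total over mouse genes, and differences are LOC minus MOC of mean log2(CPM + 1), which understates the difference of low genes. Of the 55421 identifiers 55154 matched GENCODE M21 on GRCm38. Nuclear copies were found by BLAST+ 2.17.0 of the mitochondrial genes against the annotated transcripts (at least 95% identity over at least 100 bases) and by exact matches of 75-base windows. edgeR 4.0.16 (R 4.3.3) gave TMM sizes only. The size rule took a group's sum as no lower than 3 counts. It was tried on simulated data only for changes well above its limit, in genes above a set level. That trial does not cover genes near the limit, such as mt-Tc. Libraries were also thinned to 350000 counts, a pseudocount of 10 was tried, and each cell was left out in turn.

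The members and lists were chosen with earlier results of these data known. All 37 mitochondrial genes could be named, of the tRNA genes the 6 with the most counts, those meeting the size rule and those at 0, and from each pathway list up to 4 genes that met the size rule, by size of difference. Of the nuclear copies the 4 with the most counts could be named, and the others that appear were added after their identity to a mitochondrial gene was seen. The genes mt-Tg, mt-Tn, mt-Tr and Gatb were added after their values were seen.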

Additional observations from a re-analysis of the deposited data

How the results depend on the processing

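No paired analysis was possible because the result comes from no test and the cell numbers only name cells. The number of mitochondrial genes that met the size rule toward LOC was 2. It was 1 with TMM sizes, 6 with the authors' normalized values, 4 with counts outside the mitochondrial genome as the denominator, 1 with a pseudocount of 10, 7 after thinning to 350000 counts, 0 in libraries with at least 10 cholinergic reads, and 11 without the libraries above 10% oligodendrocyte markers, an alternative chosen after seeing the data. Leaving out 1 cell at a time gave between 1 and 12. Besides the libraries named in the report, the number was 4 without LOC cell 3, 5 or 14 and 5 without LOC cell 4 or 15. Toward MOC it was 0 under every setting tried. The difference in mRNA share was 2.70 percentage points, 1.58 in summed counts, 2.83 between medians, 4.37 per 100 counts outside the mitochondrial genome, 1.08 in libraries with at least 10 cholinergic reads and 2.69 without those above 10% oligodendrocyte markers, and ran from 1.87 (without LOC cell 16) to 3.43 (without MOC cell 11) over single cells left out. All 27 measured genes stayed above 0 with each of the 31 cells left out. The mt-Co1 difference ran from -5.45 to -4.43 percentage points, and was -6.77 in summed counts. mt-Atp8, with 6 counts, differed by 0.04, by -0.10 without the libraries above 10% oligodendrocyte markers and by -0.06 without LOC cell 6. For the 10 unmeasured genes no difference was detectable at these counts, and the cause of the low counts was not tested.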
